A study of Mus musculus with 11 samples.

Results

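The 37 genes described here make cholesterol and fatty acids, or control that synthesis, and were compared between tumor-associated macrophages and splenic macrophages of the same kind of mouse. They are a list of named genes, drawn up with earlier results of these data known, and all 37 were found among the 35597 genes measured in this comparison. They were divided into a sterol branch of 18 enzymes of cholesterol synthesis, a group of 6 regulators and sterol carriers, and a fatty acid branch of 13 genes that supply acetyl-CoA and NADPH or build, elongate and desaturate fatty acids.

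The groups were 4 libraries of tumor-associated macrophages (WT_TAM) and 3 libraries of splenic macrophages (WT_SP), measured by RNA sequencing. All came from C57BL/6 mice with the genotype Sin1fl/fl, which carry a floxed Sin1 gene but no LysMCre, so the gene was not deleted in either group. Mice aged 6 to 8 weeks had received 500000 Lewis lung carcinoma (LLC) cells, a transplantable mouse lung tumor line, under the skin, and tissue was taken on day 14. Both sorts took CD45+ F4/80+ cells and left out Ly6G+ and Ly6C+ cells. In the tumor the cells were also CD11b+, and in the spleen they were TCRβ- and low in CD11b. The question was set by the study's comparison of macrophages at the tumor with macrophages elsewhere in tumor-bearing mice. The labels do not say which mouse, or how many mice, each library came from, so the p-values speak only to how far these libraries spread, and that spread may be technical.

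Cholesterol is built from acetyl-CoA through mevalonate, farnesyl diphosphate, squalene and lanosterol. The SREBP transcription factors, encoded by Srebf1 and Srebf2, drive most genes of this pathway and many of fatty acid synthesis. When sterols are plentiful, the INSIG proteins hold SCAP, the escort of SREBP, in the endoplasmic reticulum, and when sterols are scarce SCAP carries SREBP to the Golgi for cleavage. LXR, a nuclear receptor activated by oxysterols, raises the efflux transporters Abca1 and Abcg1 and also Srebf1 and Scd1.

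Total reads recovered from the deposited values were between 7635409 and 13075283 per library. WT_TAM replicate 4 had the fewest and stood apart. Its log2 levels correlated with those of the other WT_TAM libraries at 0.917 to 0.924, whereas those 3 correlated with each other at 0.982 to 0.985. It was the lowest of the 4 WT_TAM libraries for 45.6% of the genes tested and the highest for 34.6%, so results are also given without it. Reads of mitochondrial genes made up 1.12%, 6.58%, 2.00% and 5.79% of WT_TAM replicates 1 to 4 and 0.838% to 1.09% of the WT_SP libraries. Genes without a length in the deposited table took 3.35% of the reads of WT_TAM replicate 4, 1.35% to 1.47% in the other tumor libraries and 4.37% to 5.03% in WT_SP. The part of these shares in the results was not tested. The markers of other cell types differed between the sorts. Markers of B cells, such as Cd79a, summed to 5634 to 6713 CPM (library-scaled read counts, with the authors' size factors) in WT_SP and to 9.18 to 76.2 CPM in WT_TAM, with all 6 lower in WT_TAM by the test. T cell markers summed to 1146 to 1194 CPM against 74.1 to 121 CPM with 7 of 7 lower in WT_TAM, although the splenic gate leaves out TCRβ+ cells. Plasma cell markers summed to 2201 to 3639 CPM against 334 to 546 CPM, with 3 of 5 lower in WT_TAM and 1, Sdc1, higher. The tumor sum was mostly Xbp1, which did not pass and was at 262 to 393 CPM in WT_TAM. Jchain, 1 of the 3 lower markers, was at 1.15 to 6.33 CPM in WT_TAM and 1684 to 3050 CPM in WT_SP. Neutrophil markers summed to 662 to 1482 CPM in WT_SP and 89.7 to 220 CPM in WT_TAM, with 6 of 8 lower in WT_TAM and the other 2, Retnlg and Csf3r, not passing the test. Of the 6, Elane was listed at 0 in all 4 tumor libraries. General macrophage markers, dominated by Lyz2, summed to 3440 to 3783 CPM in WT_SP against 32560 to 42272 CPM in WT_TAM. Red pulp macrophage markers summed to 4414 to 4969 CPM against 862 to 1351 CPM. That tumor sum was mostly Hmox1 and Axl, and Axl, at 584 to 665 CPM in WT_TAM, did not pass. Spic was at 152 to 175 CPM in WT_SP against 1.15 to 2.35 CPM, and Vcam1 at 896 to 1198 CPM against 51.9 to 79.9 CPM. Of the 9 general markers 6 were higher in WT_TAM, while Adgre1, Csf1r and Mertk did not pass, and of the 7 red pulp markers 6 were lower. Among the 6 higher ones was Itgam, at 187 to 291 CPM against 12.2 to 14.4 CPM. It encodes CD11b, on which the 2 sorts themselves differed. Fibroblast markers were on the WT_TAM side, at 449 to 1010 CPM against 10.2 to 48.9 CPM, as was the sum of the epithelial and carcinoma list, at 185 to 412 CPM against 11.2 to 19.4 CPM. All 8 fibroblast markers were higher in WT_TAM, whereas of the 6 epithelial and carcinoma markers Cdh1 and Sox9 were higher, Epcam was lower and Krt8 was at 0 to 0.328 CPM there. The part of these other cells in the results below was not tested, and in such bulk samples fewer cells of a type and less RNA per cell cannot be told apart.

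**Figure D1:**
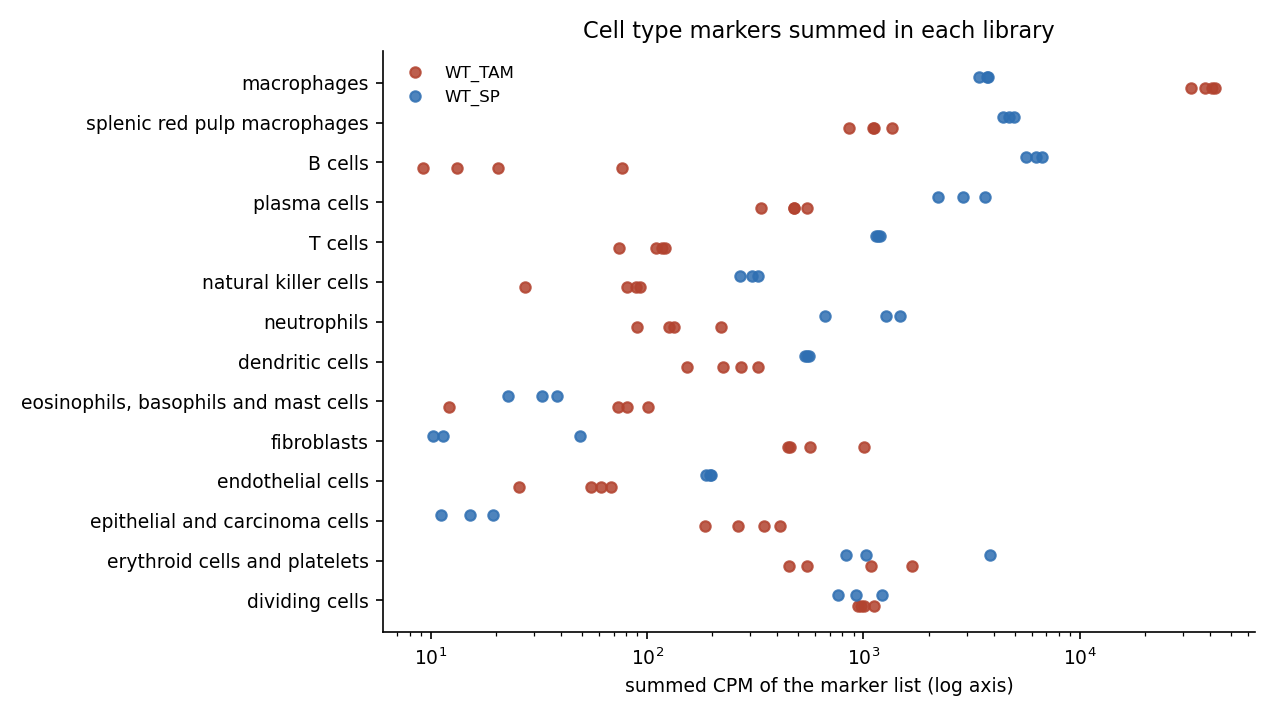
Summed CPM of each list of cell type markers (log axis), 1 point per library, WT_TAM in red and WT_SP in blue. B cell markers reached 5634 to 6713 CPM in the splenic libraries and at most 76.2 CPM in the tumor libraries, and the sum of macrophage markers, mostly Lyz2, lay the other way round.

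The sterol branch was higher in the WT_TAM libraries than in the WT_SP libraries along most of its length. By limma with Benjamini-Hochberg adjustment over all 14239 genes tested, 13 of the 18 enzymes were higher in WT_TAM and 0 were lower (0 also at an unadjusted p under 0.05 and with limma voom), and all 18 passed the filter on low reads. Of all genes tested, 23.1% were called higher and 23.6% lower (3287 and 3364 genes, against 2135 and 5629 when scaled to library totals alone). The median log2 fold change (WT_TAM minus WT_SP, on log2(CPM + 0.5), which understates low genes) was 1.32 over the 18, with a range from -0.08 to 2.35, and -0.07 over all genes tested. The lowest WT_TAM library lay above the highest WT_SP library for 15 of the 18, against 26.3% of genes tested. Without WT_TAM replicate 4, 17 of the 18 were called higher and the median was 1.30, with 32.2% of all genes called higher. Scaled to library totals alone, which moved the median of all genes to -0.52, 10 were called higher, 0 lower and the median was 0.86, with 14.9% of all genes called higher and 39.4% lower.

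The promoters of some sterol genes are shown as a description, since SREBP is known to work with NF-Y, which binds the CCAAT box. A part of these boxes in the levels was not tested. The 180 bases before the RefSeq start (GRCm38.p6, 5′ to 3′ on the gene's strand) are given for 4 members that were higher in WT_TAM and for Fasn, which was lower. Capitals mark CCAAT, its complement ATTGG and, in Hmgcs1, the core sterol regulatory element (TCAC, any base, CCAC). In Fasn 1 box on each strand overlaps the other. The windows lie at chr13:119690171-119690350 on the plus strand for Hmgcs1, and on the minus strand at chr8:122443423-122443602 for Mvd, chr8:64733579-64733758 for Msmo1, chr5:4104698-4104877 for Cyp51 and chr11:120824548-120824727 for Fasn. RefSeq and GENCODE starts can differ. The Msmo1 window lies inside the GENCODE gene (chr8:64718139-64733792), and the Cyp51 window lies partly inside its gene (chr5:4081145-4104746).
Hmgcs1: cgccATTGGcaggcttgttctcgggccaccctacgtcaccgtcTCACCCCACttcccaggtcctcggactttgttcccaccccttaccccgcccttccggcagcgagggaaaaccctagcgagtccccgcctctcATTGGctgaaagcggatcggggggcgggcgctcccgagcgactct
Mvd: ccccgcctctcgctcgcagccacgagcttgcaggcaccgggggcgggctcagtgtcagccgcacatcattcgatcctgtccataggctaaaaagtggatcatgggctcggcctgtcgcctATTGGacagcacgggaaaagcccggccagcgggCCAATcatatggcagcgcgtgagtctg
Msmo1: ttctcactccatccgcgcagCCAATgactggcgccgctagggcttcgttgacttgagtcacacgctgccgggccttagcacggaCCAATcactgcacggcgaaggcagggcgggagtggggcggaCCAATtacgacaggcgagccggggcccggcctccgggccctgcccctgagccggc
Cyp51: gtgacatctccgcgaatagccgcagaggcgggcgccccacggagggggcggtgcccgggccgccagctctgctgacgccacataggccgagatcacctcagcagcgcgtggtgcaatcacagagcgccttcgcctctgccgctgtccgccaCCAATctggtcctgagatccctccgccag
Fasn: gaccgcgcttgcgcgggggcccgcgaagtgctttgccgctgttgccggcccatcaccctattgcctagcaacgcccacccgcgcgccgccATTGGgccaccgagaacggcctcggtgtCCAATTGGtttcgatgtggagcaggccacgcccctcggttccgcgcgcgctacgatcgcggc

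Of the 18 sterol enzymes, 15 had an entry in the RefSeq promoter table (250 bases before to 50 after the start, 1 or more starts per gene), and 14 of these, or 93.3%, held a CCAAT box on either strand in at least 1 window. The same held for 41.1% of all 27025 genes in that table. By window, the share was 77.8% (14 of 18) against 37.4% of all windows. A box was also held by Dhcr7, Idi1, Nsdhl and Sc5d, which did not pass the test with all libraries. Among the printed windows, Msmo1 held 3 CCAAT boxes on the gene's strand, and Mvd held 1 on each strand. The core sterol regulatory element, searched on both strands, was found in Hmgcs1 alone among the 15 matched sterol enzymes (6.67%), and in 1.44% of all genes. Only that exact pattern was searched, so elements with other letters would not be found. In the fatty acid branch 7 of 10 matched genes held a CCAAT box, among them Fasn and Elovl5, both lower in WT_TAM, and among the regulators 4 of 5 did. The shares by window were 58.3% (7 of 12) and 50% (5 of 10), against 37.4% of all windows. These matches describe letters in a window and no binding was measured.

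The steps from acetyl-CoA to farnesyl diphosphate were covered by 7 members, of which 5 were called higher. Mvd, which decarboxylates mevalonate diphosphate, was measured at 79.6, 75.9, 66.4 and 137 CPM in WT_TAM replicates 1 to 4 and at 25.8, 24.2 and 21.0 CPM in WT_SP replicates 1 to 3. All 4 tumor libraries lay above all splenic ones, with WT_TAM replicate 4 the highest, and the log2 fold change was 1.85 ± 0.26 (SE; limma adjusted p = 0.000496). Pmvk, phosphomevalonate kinase, was at 21.6, 20.3, 22.5 and 30.7 CPM against 9.09, 9.26 and 8.14 CPM. These groups did not overlap either, and the log2 fold change was 1.36 ± 0.21 (limma adjusted p = 0.000754). Mvk, mevalonate kinase, had a log2 fold change of 1.43 ± 0.31 (limma adjusted p = 0.00537), with 17.9 to 18.8 CPM in 3 tumor libraries, 41.5 CPM in WT_TAM replicate 4, and 7.63 to 8.53 CPM in WT_SP.

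Hmgcs1, the cytosolic synthase that makes HMG-CoA (chr13:119690379-119708260 in GRCm38), differed between the tumor libraries. It was at 95.3 to 105 CPM in WT_TAM replicates 1 to 3 but at 45.7 CPM in replicate 4, beside 32.8 to 45.7 CPM in WT_SP. Replicate 4 was thus almost level with the highest splenic library. The log2 fold change was 1.08 ± 0.31 (limma adjusted p = 0.0185). It was 1.36 without WT_TAM replicate 4. The call was lost on library totals alone (0.61, limma adjusted p = 0.156) and without WT_TAM replicate 2, WT_SP replicate 2 or WT_SP replicate 3 (adjusted p = 0.051, 0.0617 and 0.0803). Idi1, which isomerizes isopentenyl diphosphate, showed the same arrangement more strongly, with 18.2 to 28.5 CPM in 3 tumor libraries, 6.07 CPM in WT_TAM replicate 4 and 6.09 to 10.6 CPM in WT_SP. It did not pass the test with all libraries (log2 fold change 1.05, limma adjusted p = 0.117) and passed without replicate 4 (1.52, limma adjusted p = 0.000196).

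Fdps, farnesyl diphosphate synthase, rested on few reads, with 11 to 34 per tumor library and 7 to 17 per splenic library. Its level was 1.80 to 2.87 CPM against 0.513 to 1.20 CPM, and its log2 fold change was 0.94 (limma adjusted p = 0.0258). The call was lost without WT_TAM replicate 1, WT_TAM replicate 3, WT_SP replicate 2 or WT_SP replicate 3 (adjusted p between 0.0502 and 0.124), and on library totals alone (0.60, limma adjusted p = 0.122). Reads shared with near-identical copies can be lost in counting, so this level is uncertain. Acat2, which joins acetyl-CoA units in the cytosol, was at 23.1 to 31.1 CPM against 18.4 to 21.1 CPM. Its groups did not overlap, but its log2 fold change of 0.47 did not pass the test (limma adjusted p = 0.0601). It passed without WT_TAM replicate 1 (0.56, limma adjusted p = 0.0441) and without WT_TAM replicate 4 (0.42, limma adjusted p = 0.0238).

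All 3 enzymes from farnesyl diphosphate to lanosterol were higher. Sqle, squalene epoxidase (chr15:59315077-59331192), which oxidizes squalene at a rate-limiting step, showed the largest fold change of the branch. It was at 118, 169, 116 and 83.6 CPM in WT_TAM and at 27.6, 22.5 and 18.8 CPM in WT_SP. Every tumor library exceeded every splenic library by a wide margin, the group means differed 5.29-fold, and the log2 fold change was 2.35 ± 0.26 (limma adjusted p = 0.000115). Fdft1, squalene synthase (chr14:63145150-63179578), was at 75.2, 91.2, 78.7 and 82.5 CPM against 35.0, 28.2 and 28.9 CPM. For this gene WT_TAM replicate 4 lay among the other tumor libraries, and the log2 fold change was 1.40 ± 0.17 (limma adjusted p = 0.000181). Lss, lanosterol synthase, was at 38.1, 45.9, 36.5 and 28.2 CPM against 20.5, 11.6 and 13.3 CPM, again without overlap, with a log2 fold change of 1.29 ± 0.25 (limma adjusted p = 0.00318).

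Of the 8 enzymes from lanosterol to cholesterol, 5 were higher. Cyp51 (chr5:4081145-4104746), the cytochrome P450 that demethylates lanosterol, was at 128, 152, 135 and 70.3 CPM in WT_TAM and at 29.7, 28.8 and 23.2 CPM in WT_SP. WT_TAM replicate 4 was the lowest tumor library and still lay above all 3 splenic ones, and the log2 fold change was 2.08 ± 0.27 (limma adjusted p = 0.000346). Msmo1, the sterol C4-methyl oxidase (chr8:64718139-64733792), was at 118, 157, 132 and 87.7 CPM against 36.6, 34.8 and 32.9 CPM. The order of the libraries was as for Cyp51, and the log2 fold change was 1.79 ± 0.22 (limma adjusted p = 0.000208). Ebp, the sterol isomerase, was at 95.3, 87.5, 92.0 and 115 CPM against 51.2, 56.9 and 54.5 CPM. It had the highest level per length in both groups among the 17 sterol enzymes with a length, which Hmgcs1 lacks in the deposited table, 87.9 ± 11.1 CPM per kb (SD, n = 4) and 48.8 ± 2.55 CPM per kb (SD, n = 3), and a log2 fold change of 0.83 ± 0.17 (limma adjusted p = 0.00325). Scaled to library totals alone, the log2 fold change of Ebp was 0.36 and did not pass (limma adjusted p = 0.106).

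Hsd17b7, a sterol ketoreductase, and Tm7sf2, a sterol C14 reductase, completed the higher members of this stretch. Hsd17b7 was at 11.0 to 30.8 CPM in WT_TAM and 5.79 to 7.61 CPM in WT_SP (log2 fold change 1.49, limma adjusted p = 0.00593), and WT_TAM replicate 4 was the lowest tumor library. Tm7sf2 was at 8.92 to 19.0 CPM and 3.47 to 4.33 CPM (log2 fold change 1.43, limma adjusted p = 0.00423), and there replicate 4 was the highest. Nsdhl, which removes the C4 carboxyl group, was at 28.4 to 32.8 CPM against 19.4 to 23.9 CPM, so its groups did not overlap. Its log2 fold change of 0.46 missed the threshold (limma adjusted p = 0.0547), and the value without WT_TAM replicate 4 was 0.50 (limma adjusted p = 0.00696). Sc5d, the sterol C5 desaturase, had a log2 fold change of 0.37 (limma adjusted p = 0.242), with 30.2 CPM in WT_TAM replicate 4 below the 34.3 to 37.9 CPM of the splenic libraries. Without that library it was 0.58 and passed (limma adjusted p = 0.000733).

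Dhcr7, the reductase of the last step in the Kandutsch-Russell route, was the one sterol enzyme that passed in no setting run. Its level was 24.4 to 32.4 CPM in WT_TAM and 28.1 to 32.5 CPM in WT_SP, and the groups overlapped. The log2 fold change was -0.08 with a 95% interval from -0.48 to 0.32 (limma adjusted p = 0.733). The median log2 difference of the 18 enzymes from the splenic mean was 1.25, 1.29, 1.30 and 1.00 in WT_TAM replicates 1 to 4, and 0.12, 0.01 and -0.12 in WT_SP replicates 1 to 3. By this measure the 3 other tumor libraries were nearly level and replicate 4 was the lowest of the 4.

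**Figure D2:**
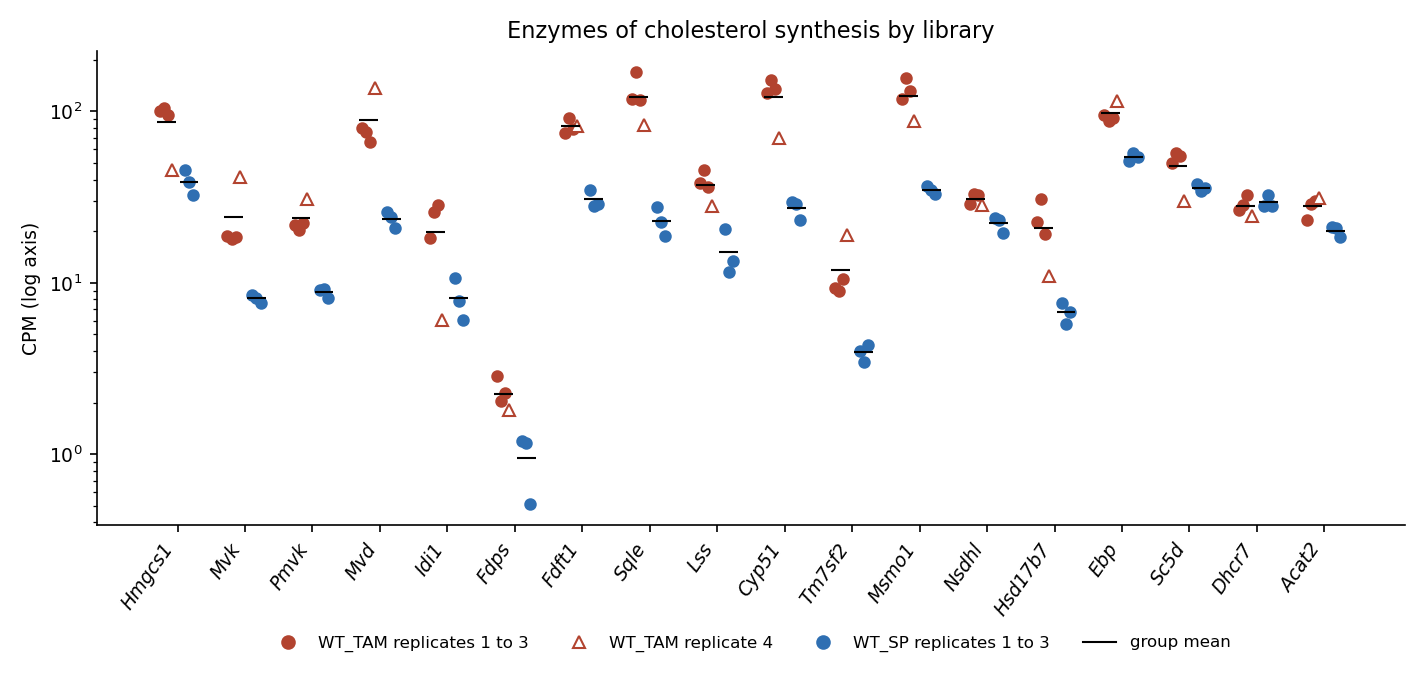
CPM (log axis) of the 18 enzymes of cholesterol synthesis in each library, with WT_TAM in red (replicate 4 as an open triangle), WT_SP in blue and a bar at each group mean. For 15 enzymes every tumor library lies above every splenic library, and the open triangle lies low for Hmgcs1 (45.7 CPM) and Idi1 (6.07 CPM) and high for Mvk (41.5 CPM).

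Of the 6 regulators and carriers tested, 2 (33.3%) were higher and 1 (16.7%) was lower in WT_TAM, against 23.1% and 23.6% of all genes. Their median log2 fold change was 0.34, against -0.07 over all genes. Scaled to library totals alone it was -0.13, against -0.52 over all genes. The messages of the SREBP factors themselves did not pass the test with all libraries. Srebf2, the main driver of cholesterol synthesis genes, was at 245, 259, 268 and 305 CPM in WT_TAM and at 301, 295 and 310 CPM in WT_SP. Replicate 4 lay within the splenic range and the 3 others below it, the 95% interval of the log2 fold change of -0.17 ran from -0.53 to 0.19, and the limma adjusted p was 0.416. Without WT_TAM replicate 4 the value was -0.23 and passed (limma adjusted p = 0.0269), as it did on library totals alone (-0.64, limma adjusted p = 0.0103). Of all genes, 33.5% were called lower without that replicate and 39.4% on library totals alone. Srebf2 also had the highest level per length of these 6 genes, at 63.7 ± 6.03 CPM per kb (SD, n = 4) in WT_TAM and 71.4 ± 1.73 CPM per kb (SD, n = 3) in WT_SP. Srebf1, whose products drive fatty acid genes, was at 110, 126, 93.9 and 135 CPM against 107, 97.9 and 100.2 CPM. The groups overlapped, and the log2 fold change was 0.18 with a 95% interval from -0.22 to 0.59 (limma adjusted p = 0.432). On library totals alone it was -0.29 and did not pass (limma adjusted p = 0.17).

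Insig1, the INSIG protein whose gene is itself an SREBP target, was at 84.8, 92.4, 99.2 and 34.1 CPM in WT_TAM and at 19.7, 22.1 and 20.6 CPM in WT_SP (chr5:28071363-28078662). WT_TAM replicate 4 was far below the other tumor libraries and still above the splenic ones. The log2 fold change was 1.77 ± 0.36 (limma adjusted p = 0.00366) and 2.12 without that library. Insig2, which also retains SCAP, was at 35.5, 48.4, 41.8 and 22.0 CPM against 23.8, 23.2 and 28.8 CPM. Here replicate 4 was the lowest of all 7 libraries. The log2 fold change of 0.49 did not pass (limma adjusted p = 0.176), and without replicate 4 it was 0.71 and passed (limma adjusted p = 0.00139).

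Scap, the escort, was at 42.1, 42.1, 36.9 and 38.5 CPM in WT_TAM and at 59.3, 53.3 and 57.3 CPM in WT_SP. It was the one regulator that was lower, with no overlap and a log2 fold change of -0.50 ± 0.16 (limma adjusted p = 0.0278). The call was lost without WT_TAM replicate 3 or without any of the 3 WT_SP libraries (adjusted p between 0.0701 and 0.108), with log2 fold changes from -0.46 to -0.54. Stard4, a soluble carrier that moves cholesterol between membranes, was at 24.3, 29.1, 26.6 and 38.0 CPM against 13.3, 10.6 and 13.3 CPM. All tumor libraries exceeded all splenic ones, and the log2 fold change was 1.21 ± 0.21 (limma adjusted p = 0.00172).

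The fatty acid branch was divided between higher and lower members. Of 13 genes, all tested, 6 were higher and 4 were lower in WT_TAM and 3 did not pass. The groups did not overlap for 6 members with WT_TAM higher and for 4 with WT_TAM lower, and 29.8% of all genes tested were lower without overlap. The shares were 46.2% higher and 30.8% lower, against 23.1% and 23.6% of all genes, and the 10 calls compare with 46.7% of all genes tested that were called in either direction. The median log2 fold change was 0.49 and was 0.91 without WT_TAM replicate 4, and single members ran from -3.92 to 2.05. Scaled to library totals alone the median was 0.01, against -0.52 over all genes. The lower count fell from 4 to 2 without WT_SP replicate 2 or without WT_SP replicate 3, where Fasn and Elovl5 no longer passed. The 3 elongases and 4 desaturases held 5 of the 6 higher members and 2 of the 4 lower ones, Elovl5 and Scd1.

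The stearoyl-CoA desaturases, which place the first double bond in saturated fatty acids, went opposite ways. Scd1 (chr19:44394455-44407879) was at 15.5, 36.7, 18.1 and 19.8 CPM in WT_TAM and at 323, 342 and 322 CPM in WT_SP. The group means differed 14.6-fold, and the log2 fold change was -3.92 ± 0.28 (limma adjusted p = 1.01e-05). Scd2 (chr19:44293674-44306864) was at 201, 229, 183 and 124 CPM against 76.3, 70.7 and 52.4 CPM. It was higher in every tumor library, with a log2 fold change of 1.45 ± 0.25 (limma adjusted p = 0.00148). Per kb of gene length, Scd2 made up 87.5 ± 3.80% of Scd1 plus Scd2 in WT_TAM (SD, n = 4) and 14.7 ± 2.33% in WT_SP (SD, n = 3). The sum of both was 38.6 ± 9.42 CPM per kb in WT_TAM and 82.4 ± 3.84 CPM per kb in WT_SP. The tumor libraries ranged from 27.0 to 49.9 and the splenic ones from 78.3 to 85.9 CPM per kb, so the sum did not overlap between the groups either. The similar sequences of these genes could let counting assign some reads to the wrong one.

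The front-end desaturases of polyunsaturated fatty acid synthesis were both higher. Fads1, the Δ5-desaturase (chr19:10182888-10196877), was at 107, 99.2, 85.4 and 92.1 CPM in WT_TAM and at 29.9, 20.8 and 20.4 CPM in WT_SP. The 4 tumor libraries lay close together, and the log2 fold change was 2.01 ± 0.20 (limma adjusted p = 5.3e-05). Its neighbour Fads2, the Δ6-desaturase (chr19:10062765-10101746), was at 15.8, 13.5, 14.9 and 10.5 CPM against 6.63, 1.85 and 3.96 CPM. Its level was lower and the splenic libraries differed more among themselves, and the log2 fold change was 1.73 ± 0.37 (limma adjusted p = 0.00476).

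The elongases, which lengthen fatty acyl chains, differed in direction. Elovl1, which extends saturated and monounsaturated very long chains (chr4:118428093-118432953), was at 218, 208, 222 and 227 CPM against 80.3, 80.9 and 91.2 CPM. It varied least among the tumor libraries of the members described so far, with a mean of 219 ± 7.79 CPM (SD, n = 4), and its log2 fold change was 1.37 ± 0.15 (limma adjusted p = 0.00011). In WT_TAM it also had the highest level per length of the branch, 175.7 ± 6.25 CPM per kb (SD, n = 4), while in WT_SP that place was held by Scd1, at 70.2 ± 2.41 CPM per kb (SD, n = 3), and the 67.6 ± 4.93 CPM per kb of Elovl1 lay within about an SD of it. Elovl6, which extends palmitate to stearate, was at 8.02, 8.33, 11.5 and 7.38 CPM against 5.07, 4.09 and 3.52 CPM. Its groups did not overlap and the log2 fold change was 0.97 ± 0.25 (limma adjusted p = 0.011). It lost the call without WT_SP replicate 3 (0.86, limma adjusted p = 0.0587) and on library totals alone (0.53, limma adjusted p = 0.123). Elovl5, the elongase of polyunsaturated chains, was lower, at 41.3 to 79.2 CPM against 124 to 129 CPM, with WT_TAM replicate 4 the lowest. Its log2 fold change was -0.94 (limma adjusted p = 0.0136), and it missed the threshold without WT_SP replicate 2 or 3 (adjusted p = 0.0533 and 0.0523).

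The enzymes of chain synthesis were not higher in WT_TAM. Fasn, fatty acid synthase (chr11:120805846-120824547), was at 49.3 to 88.4 CPM in WT_TAM and at 93.9 to 109 CPM in WT_SP. The groups did not overlap and the log2 fold change was -0.71 (limma adjusted p = 0.0286). The call was lost when any 1 library other than WT_TAM replicate 4 was left out (adjusted p between 0.0595 and 0.103), and without WT_TAM replicate 4 the value was -0.88 (limma adjusted p = 5.35e-05). Acaca, the acetyl-CoA carboxylase that makes malonyl-CoA for synthesis, was at 8.72 to 15.2 CPM against 12.6 to 15.8 CPM, with a log2 fold change of -0.29 (limma adjusted p = 0.398). It passed on library totals alone (-0.74, limma adjusted p = 0.0428). Acacb, the carboxylase at mitochondria, was near the floor of detection, with 5 to 10 reads per tumor library and 10 to 27 per splenic library, and a log2 fold change of -0.46 (limma adjusted p = 0.293).

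Of the genes that supply acetyl-CoA and NADPH, 1 was higher, 1 was lower and 1 did not pass. Me1, the cytosolic malic enzyme that makes NADPH, was at 2.11, 5.09, 1.40 and 2.30 CPM in WT_TAM and at 0.493, 0.0772 and 0.147 CPM in WT_SP. The splenic libraries held 7, 1 and 2 reads of it. All tumor libraries lay above them, the log2 fold change was 2.05 ± 0.40 (limma adjusted p = 0.00307), and over the settings run it ranged from 1.03 to 3.44. Acss2, which makes acetyl-CoA from acetate (chr2:155517948-155585724), was at 9.46, 6.66, 7.52 and 4.75 CPM against 29.2, 28.9 and 28.5 CPM. It was lower in all tumor libraries, with a log2 fold change of -1.99 ± 0.25 (limma adjusted p = 0.000229). Acly, ATP citrate lyase, the main source of cytosolic acetyl-CoA, was at 497, 525 and 439 CPM in WT_TAM replicates 1 to 3, at 152 CPM in replicate 4 and at 245 to 283 CPM in WT_SP. Replicate 4 lay below the splenic libraries and the other tumor libraries above them. The log2 fold change of 0.49 did not pass (limma adjusted p = 0.36), and without replicate 4 it was 0.91 (limma adjusted p = 1.36e-05).

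**Figure D3:**
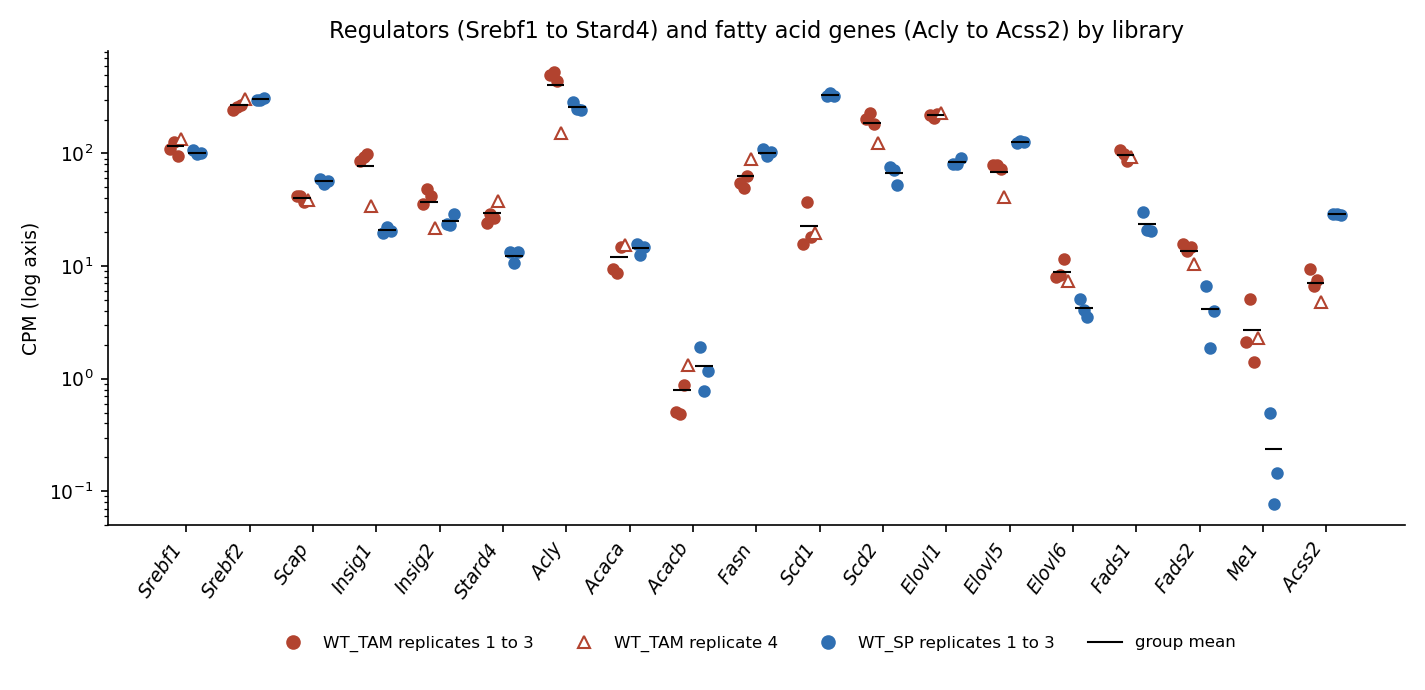
CPM (log axis) of the 6 regulators and carriers and the 13 genes of the fatty acid branch in each library, with WT_TAM in red (replicate 4 as an open triangle), WT_SP in blue and a bar at each group mean. Scd1 lies at 15.5 to 36.7 CPM in the tumor and 322 to 342 CPM in the spleen, Scd2 lies the other way round, and the open triangle of Acly (152 CPM) lies below the splenic libraries.

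Over all 37 members, 21 were higher, 5 were lower and 11 did not pass. Of all genes tested, 23.1% were higher and 23.6% lower. Of the 26 that passed, 19 passed in the same direction in every one of the alternatives in which they were tested (up to 19). The other 7 were Hmgcs1, Fdps, Ebp, Scap, Fasn, Elovl5 and Elovl6. Leaving out WT_TAM replicate 4 removed no member's call and added 7, those of Idi1, Nsdhl, Sc5d, Acat2, Srebf2, Insig2 and Acly. The shares of all genes rose as well, to 32.2% called higher and 33.5% called lower.

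**Figure D4:**
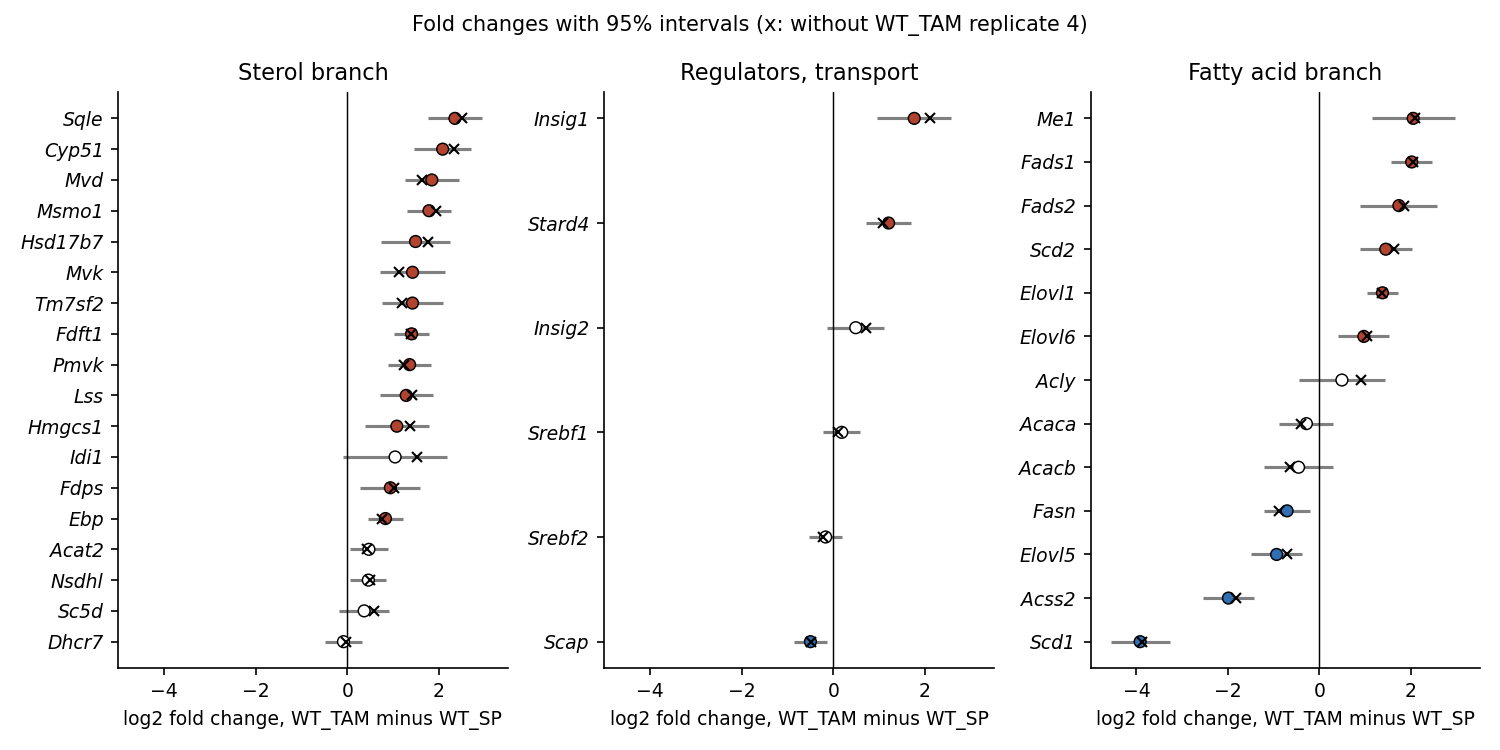
Log2 fold change (WT_TAM minus WT_SP, on log2(CPM + 0.5)) of each member with its 95% interval, in 3 panels for the sterol branch, the regulators and carriers, and the fatty acid branch. Red points were higher, blue points lower and white points did not pass, and crosses give the value without WT_TAM replicate 4; the sterol panel has 13 red and 0 blue points and the fatty acid panel 6 red and 4 blue.

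The other genes of these pathways were read from 7 lists, also drawn up with earlier results known. Their counts are to be read against the 23.1% of all genes called higher and 23.6% called lower, and a median of -0.07. On library totals alone these values were 14.9%, 39.4% and a median of -0.52. Of 11 further sterol and isoprenoid genes tested, 3 (27.3%) were higher and 1 (9.09%) was lower, with a median log2 fold change of 0.40. On library totals alone 3 were higher and 3 lower, and the median was -0.07, against -0.52 over all genes. The higher genes included Nus1, a subunit of the dehydrodolichyl diphosphate synthase (log2 fold change 1.41, limma adjusted p = 0.000187), and Tmem97, the sigma-2 receptor (1.74, limma adjusted p = 0.00108). Fntb, the beta subunit of farnesyltransferase, was lower (-0.76, limma adjusted p = 0.0373), and lost the call when any 1 library other than WT_TAM replicate 4 was left out (adjusted p between 0.0724 and 0.124).

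Of 10 genes of SREBP processing and other lipogenic regulators tested, 1 was higher and 1 was lower (10% each, below the shares of all genes), with a median of -0.38. On library totals alone 0 were higher and 6 lower. Nr1h3, which encodes LXRα, was at 14.7 to 27.5 CPM in WT_TAM and 81.6 to 83.9 CPM in WT_SP, a log2 fold change of -2.01 (limma adjusted p = 0.000159). Nr1h2, which encodes LXRβ, was at 122 to 159 CPM against 93.4 to 98.1 CPM, with a log2 fold change of 0.50 (limma adjusted p = 0.0323). Its call was lost without WT_TAM replicate 1 or any 1 of the WT_SP libraries (adjusted p between 0.0658 and 0.116), and its log2 fold change on library totals alone was 0.03.

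Of 14 genes of cholesterol uptake, lysosomal release and storage, 8 (57.1%) were higher and 2 (14.3%) lower, with a median of 1.24, and on library totals alone 7 were higher and 3 lower. The scavenging receptor Lrp1 (log2 fold change 2.78, limma adjusted p = 6.26e-06), the VLDL receptor Vldlr (2.69, limma adjusted p = 0.000173) and Npc2, which hands cholesterol out of the lysosome (1.96, limma adjusted p = 0.00014), were higher. Mylip, a ubiquitin ligase and LXR target, was lower (-2.22, limma adjusted p = 0.000368), as was Gramd1a, a carrier between plasma membrane and endoplasmic reticulum (-1.28, limma adjusted p = 0.000779). Of 8 efflux genes tested, 4 (50%) were higher and 1 (12.5%) was lower, with a median of 0.86, and on library totals alone 4 were higher and 3 lower. Abca1, the LXR target that loads cholesterol onto apolipoproteins, was at 152 to 359 CPM against 42.6 to 61.7 CPM (2.15, limma adjusted p = 0.000481), while Abcg1, which exports cholesterol to HDL, was at 73.0 to 172 CPM against 132 to 172 CPM (-0.25, limma adjusted p = 0.527). Ch25h, which makes 25-hydroxycholesterol, was at 23.3 to 37.2 CPM in WT_TAM and at 0 to 0.587 CPM in WT_SP (5.44, limma adjusted p = 3.57e-06). Pltp, the phospholipid transfer protein, was higher (2.17, limma adjusted p = 0.000568) and the apolipoprotein gene Apoc1 lower (-4.01, limma adjusted p = 1.72e-05).

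Around fatty acid synthesis, 11 of 20 genes of elongation, activation and NADPH supply (55%) were higher and 1 (5%) was lower, with a median of 0.70. On library totals alone 5 were higher and 3 lower. Pgd, a dehydrogenase of the pentose phosphate pathway, was at 382 to 519 CPM against 105 to 125 CPM (2.03, limma adjusted p = 2.97e-05). Hacd4, of the dehydratase family of the elongation cycle (2.06, limma adjusted p = 2.4e-05), and Slc25a1, the mitochondrial citrate carrier (1.15, limma adjusted p = 0.00165), were higher. Acss1, the mitochondrial acetyl-CoA synthetase, was lower (-1.88, limma adjusted p = 0.0467), with 7.54 CPM in WT_TAM replicate 4, 45.3 to 73.0 CPM in the other tumor libraries and 110 to 140 CPM in WT_SP. Without WT_TAM replicate 4 its log2 fold change was -1.18, and the call was lost without WT_TAM replicate 2 or 3 or any 1 of the WT_SP libraries (adjusted p between 0.0554 and 0.125).

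Of 20 genes of triglyceride and phospholipid assembly, 12 (60%) were higher and 3 (15%) were lower, with a median of 1.14, and on library totals alone 7 were higher and 4 lower. Plin2, which coats lipid droplets, was at 507 to 968 CPM in WT_TAM and 69.1 to 85.3 CPM in WT_SP (3.24, limma adjusted p = 1.13e-05). The acyltransferases Agpat4 (2.46, limma adjusted p = 1.88e-05) and Lpcat2 (2.45, limma adjusted p = 6.22e-05) were higher, and Lpcat1 (-1.07, limma adjusted p = 0.00135) and Agpat3 (-1.79, limma adjusted p = 0.00246) were lower. Cds2, a CDP-diacylglycerol synthase, was lower by 0.50 on the log2 scale (limma adjusted p = 0.045), a call lost without WT_TAM replicate 1 or 2 or any 1 of the WT_SP libraries (adjusted p between 0.0683 and 0.144). Of 15 genes of fatty acid uptake and oxidation, 2 (13.3%) were higher and 1 (6.67%) was lower, both below the shares of all genes. Their median was 0.06. On library totals alone it was -0.41, against -0.52 over all genes, and 1 was higher and 1 lower. Fabp5, a fatty acid binding protein, was at 350 to 602 CPM against 29.9 to 34.3 CPM (3.70, limma adjusted p = 3.6e-06). Pparg, a nuclear receptor of lipid storage, was lower (-2.44, limma adjusted p = 0.000399).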

How the data were processed

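The authors deposited a table of 35597 genes in 7 libraries, used here as a score with no fixed range, since its values are not counts. The submitters' processing notes name mm10, TopHat2, HISAT2, HISAT, SAMtools, HTSeq and DESeq2, with no roles. No source used here gives the annotation or strand setting, so overlapping and antisense genes cannot be told apart. From the values, each cell was found to equal whole reads divided by gene length, library total and size factor, then multiplied by factors taken in turn down the rows. Genes without a length, Hmgcs1 among them, were divided by -1 and are negative (12492 genes). Whole reads were recovered within 0.0002 reads, or 1e-07 of a value, and made up 99.9% to 100.0% of each implied total. The other table of the series served only to settle 462 gene lengths, none of a member, because some of its lipid synthesis genes hold altered values. There were 0 unused sample columns.

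CPM were relative to library total times the authors' factor, and log2(CPM + 0.5) of the 7 libraries was fitted by limma (version 3.58.1, R 4.3.3; trend and robust options of its empirical Bayes step) with no covariate. Genes were tested where at least 3 libraries reached the CPM that 10 reads give in a library of median size, and the reads summed to 15 or more. The threshold was a Benjamini-Hochberg adjusted p of 0.05, two-sided. The script was tested on simulated data. Groups came from sample titles. Coordinates are from GENCODE on GRCm38, and promoters from RefSeq on GRCm38.p6. The members and lists were chosen with earlier results of these data known. Every member is named. Values in every library are given for the 8 members of each branch with the smallest adjusted p, all regulators and the member with the highest level per length. Each related list gives up to 3 genes higher and 3 lower by smallest adjusted p, and Abca1 and Abcg1 are always named; some genes that this rule would name are not reported here. Alternatives changed the pseudocount, filter, scaling, weights, model, block, use of recovered reads, promoter window and the libraries included.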

Additional observations from a re-analysis of the deposited data

Results flagged for a closer look

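In the 4 WT_TAM libraries, each member and each marker sum was checked for a library that lay farther from the rest than Dixon's 95% critical value allows, on the log2 scale. Of 51 such results, 7 met it, and in all 7 the library was WT_TAM replicate 4. Chance marks about 1 in 20 groups, and 15.8% of all genes tested met the criterion. Among the members, replicate 4 was low for Hmgcs1 (45.7 CPM), Insig1 (34.1 CPM), Acly (151.7 CPM) and Elovl5 (41.3 CPM), and high for Mvk (41.5 CPM). It was also low in the sum of natural killer cell markers, at 27.4 CPM, and in the sum of eosinophil, basophil and mast cell markers, at 12.1 CPM. That library had the fewest reads, and its part in these values was not tested.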

How the results depend on the processing

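Of the 26 members that passed, 19 passed in the same direction in each alternative run in which they were tested. Scaling to library totals alone gave 2135 genes higher and 5629 lower, with a median of -0.52 over all genes. The median was then 0.86 in the sterol branch, -0.13 in the regulators and 0.015 in the fatty acid branch. The related lists then held 27 higher and 23 lower genes (41 and 10 with the authors' factors). The number of regulators called lower, reported as 1, was 0 with no filter on low reads and with the deposited values as they stand, and 2 with library totals, quantile normalization, array weights and the replicate block. With the deposited values the regulator median was 0.52 and the fatty acid branch median 0.68, and with quantile normalization and array weights the latter was 0.12 and 0.90. Leaving out 1 library at a time gave 0 to 2 regulators called lower, a regulator median of 0.24 to 0.41, 2 to 4 fatty acid members called lower and a fatty acid branch median of 0.31 to 0.91, with 11 to 17 sterol enzymes called higher and 4977 to 9134 genes called. Cd36, a fatty acid translocase in the related lists, had a log2 fold change of -0.03 with all libraries, 0.51 with array weights, 0.54 with the block and -0.25 to 0.54 leaving out 1 library at a time, the highest without WT_TAM replicate 4; it was at 24.4 CPM in that library and 113 to 129 CPM in the other tumor libraries. In the 150 bases before the start alone, 3 of 10 regulator windows (30%) held a CCAAT box, not 5, against 24.5% of all windows. The cause of these changes was not tested.

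Deviations of same-numbered libraries from their group means correlated at -0.00, -0.09 and 0.10, and those of the other pairs at -0.10 to 0.16. Tumor and spleen of a mouse need not deviate together, so this cannot show whether the numbers pair the libraries. A fit with the number as a block, over replicates 1 to 3 and so without WT_TAM replicate 4, called 9008 genes, 17 sterol enzymes higher, 3 regulators higher and 2 lower, and had a fatty acid branch median of 0.91.

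Low reads limit Fdps, Acacb and Me1, and WT_TAM replicate 4, with the fewest reads, has the highest floor: 3 reads there are 0.492 CPM.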

Other observations

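Among the 3 splenic libraries, WT_SP replicate 1 was the highest for 14 of the 18 sterol enzymes and for 10 of the 13 genes of the fatty acid branch, against 36.8% of all genes tested. Sqle was at 27.6 CPM there and at 22.5 and 18.8 CPM in the other splenic libraries, and Lss at 20.5 CPM against 11.6 and 13.3 CPM. The same library had the highest sum of the erythroid and platelet list (3852 CPM against 829 and 1024 CPM). The platelet genes Pf4 and Ppbp were lowest there, at 14.0 and 16.8 CPM, while Hba-a1 was highest, at 2078 CPM. WT_SP replicate 1 was also highest in the sum of plasma cell markers (3639 CPM against 2201 and 2895 CPM). In that list Jchain was highest there (3050 CPM), Mzb1 was lowest (196 CPM) and Tnfrsf17 was not the highest. The sum of genes of dividing cells was highest there too (1223 CPM against 763 and 924 CPM). The part of these cells in the levels was not tested.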
